A study of Mus musculus with 24 samples.

Results

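The constitutive proteasome subunits described here are 34 genes, Psma1 to Psma7, Psmb1 to Psmb7, Psmc1 to Psmc6 and Psmd1 to Psmd14. They were chosen by name and make up 34 of the 37230 genes listed in either of the study's tables. All 34 were found by symbol in both tables, and all 34 passed the filter on low values in both. The proteasome is the protease that degrades ubiquitin-tagged proteins and supplies most peptides shown on MHC class I. Its 20S core is a barrel of alpha rings, which gate entry, and beta rings, in which Psmb5, Psmb6 and Psmb7 encode the catalytic subunits. The 19S cap binds ubiquitin chains, removes them, and unfolds and feeds in the substrate, using the Psmc ATPases and the Psmd base and lid subunits. Interferon gamma (IFNG) induces the immunoproteasome subunits Psmb8, Psmb9 and Psmb10, which take the places of the constitutive catalytic subunits in newly assembled cores.

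RNA was sequenced from live CD45-negative cells sorted on day 15 from mouse lung tumours grown from injected cells in a syngeneic host, 24 libraries in 8 groups of 3. LLC1 is the Lewis lung carcinoma line, and its groups were Parental, Chronic IFNG (exposed to low-level IFNG over a long time, with no dose in the labels) and Relapsed (after immune checkpoint blockade). KP is a line from a genetically engineered mouse model of lung cancer, with Parental and Chronic IFNG groups and 3 relapse groups, named 1st relapse, 2nd relapse and Late relapse. The labels give no treatment of the mice, no animal age and no statement on whether the 3 libraries of a group came from separate animals, so p-values measure only the spread between these samples, although the submitters call them biological replicates. Each altered group may go back to a single derived line, which the labels do not say, and in a single line a shift common to its libraries and an effect of its history cannot be told apart.

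The deposited values are variance-stabilised log2 values, from which normalised counts were calculated back. Differences below are on the deposited log2 scale, and levels, means ± SD (n = 3) and folds are in normalised counts. The deposited scale compresses differences at low counts. Members are ordered by log2 difference, and an order by fold can differ. Calls are differences with a limma adjusted p below 0.05, adjusted over every kept gene of the line. The estimated depth was 13.3 to 34.8 M fragments per library in LLC1 (M, 1000000) and 13.7 to 32.7 M in KP. Depth differed by group, with 34.8, 29.9 and 18.5 M in Parental and 18.5, 13.3 and 14.5 M in Chronic IFNG LLC1. In KP it was 28.5, 25.8 and 31.5 M in Parental, 27.1, 24.5 and 19.1 M in Chronic IFNG and 16.8, 21.7 and 13.7 M in 1st relapse. The part of depth in the results was not tested. Ptprc, which encodes CD45, lay between 6.68 and 67.05 normalised counts in LLC1 and between 12.7 and 219 in KP. Epcam and Cdh1, defining genes of carcinoma epithelium, were near 0 in LLC1 (0 to 28.3 and 0 to 17.4) but not in KP (635 to 8497 and 3288 to 17036). All 7 fibroblast markers were kept in both lines, and summed levels of marker lists are given beside the results. Each sum covers every listed gene, kept or not. The endothelial sums are mostly Flt1, which had 142 to 448 counts in LLC1 and 2471 to 6070 in KP. Pecam1, Cdh5, Kdr, Vwf and Emcn did not exceed 42.1 in LLC1 and 70.0 in KP.

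Promoter stretches are shown for 4 members that carry the range of results below: Psmd4, which rose in Relapsed LLC1, Psmb6, a catalytic subunit that rose in late KP relapse, Psmd14, which fell in 2nd relapse KP, and Psmd2, the member without any called group difference in KP. Each is the 120 bases before the RefSeq start site on GRCm38.p6, 5′ to 3′ on the gene's strand, with no overlap with an annotated exon. They lie at chr3:95042615-95042734 (minus strand), chr11:70525237-70525356 (plus strand), chr2:61711574-61711693 (plus strand) and chr16:20651532-20651651 (plus strand). Capitals mark a CCAAT box on either strand or TGACNNNGC, the core of the antioxidant response element that NFE2L1 and NFE2L2 bind.
Psmd4: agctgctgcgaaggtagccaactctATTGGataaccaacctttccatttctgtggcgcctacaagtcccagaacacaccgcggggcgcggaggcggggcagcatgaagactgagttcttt
Psmb6: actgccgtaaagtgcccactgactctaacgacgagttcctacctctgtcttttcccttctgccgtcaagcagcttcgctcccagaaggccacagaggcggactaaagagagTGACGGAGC
Psmd14: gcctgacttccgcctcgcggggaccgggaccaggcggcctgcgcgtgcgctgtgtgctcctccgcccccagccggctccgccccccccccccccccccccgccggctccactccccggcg
Psmd2: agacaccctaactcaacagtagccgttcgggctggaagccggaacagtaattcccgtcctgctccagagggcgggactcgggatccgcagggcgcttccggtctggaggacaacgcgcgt
The Psmd4 stretch holds CCAAT on the opposite strand (ATTGG), the Psmb6 stretch ends in TGACGGAGC, and neither motif is in these letters of Psmd14 or Psmd2. The wider window of Psmd14 described next does hold CCAAT.
In windows of 250 bases before to 50 after a start site, searched on both strands, 28 of the 34 members were matched by symbol to the RefSeq promoter table used here, with 30 promoters. TGACNNNGC was found in 5 of these 30 (16.7%), those of Psmb5, Psmb6, Psmc6, Psmd9 and Psmd12, against 12.4% of all 32851 promoters. CCAAT was found in 11 of 30 (36.7%) against 37.4% of all. These 11 belong to Psma1, Psma2, Psma3, Psma6, Psma7, Psmb3, Psmc1, Psmc2, Psmd4, Psmd10 and Psmd14. Psmd4 and Psmd14 each had 3 CCAAT matches in this window, and Psmd2 had 0 of either motif. In Psmd14 they begin at -159, 5 and 8 from the start site, outside the printed letters. Neither motif contains the other.

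Levels were compared between members as normalised counts per kilobase in the parental tumours of each line (means of 3 libraries). The length used was that of the longest annotated protein-coding transcript of each gene. Psma7, an alpha-ring subunit, and Psmb6, the beta subunit with caspase-like activity, were the highest members there in both lines, at 2809 and 2640.1 counts per kb in LLC1 and 3152 and 2899 in KP. Psmd9 and Psmd10, which are chaperones of cap assembly and not part of the finished particle, were the lowest, at 203 and 266 in LLC1 and 167 and 360.2 in KP. The medians of these parental levels by role in LLC1 were 2007 for the beta ring, 1484.5 for the alpha ring, 1370 for the ATPases, 1535 for the base subunits, 939.8 for the lid and 266 for the 3 chaperones. In KP the same medians were 1918, 1674, 1260.0, 1783, 1073 and 360.2, so with these lengths the beta ring led and the chaperones came last in the parental tumours of both lines. Psma2 and Psma3 were given 2911 and 2846 bases, and the other alpha subunits 1042 to 1239. The order of the rings may rest on this choice, and other lengths were not tried. The median spread between replicates of a member was a coefficient of variation of 4.0% in each line.

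In LLC1 25 of 34 members passed the limma F test over the 3 groups, where 60.7% of all kept genes did, and in KP 33 of 34 passed over the 5 groups, where 87% did. The smallest adjusted p in LLC1 belonged to Psma5, Psmd4 and Psmb4 (F test, limma adjusted p = 8.0e-06, 3.4e-05 and 9.9e-05), and in KP to Psmd8, Psmb6 and Psma2 (4.2e-06, 9.1e-06 and 1.5e-05). The largest in LLC1 belonged to Psmd14, Psmd8 and Psmd6 (0.213, 0.575 and 0.792), and in KP to Psmd10, Psmc4 and Psmd2 (0.0211, 0.0252 and 0.0818). The lid subunit Psmd8 thus had the smallest adjusted p of the members in one line and the second largest in the other. Against parental tumours the largest absolute log2 difference of any member was 0.53 in LLC1 and 0.50 in KP.

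**Figure D1:**
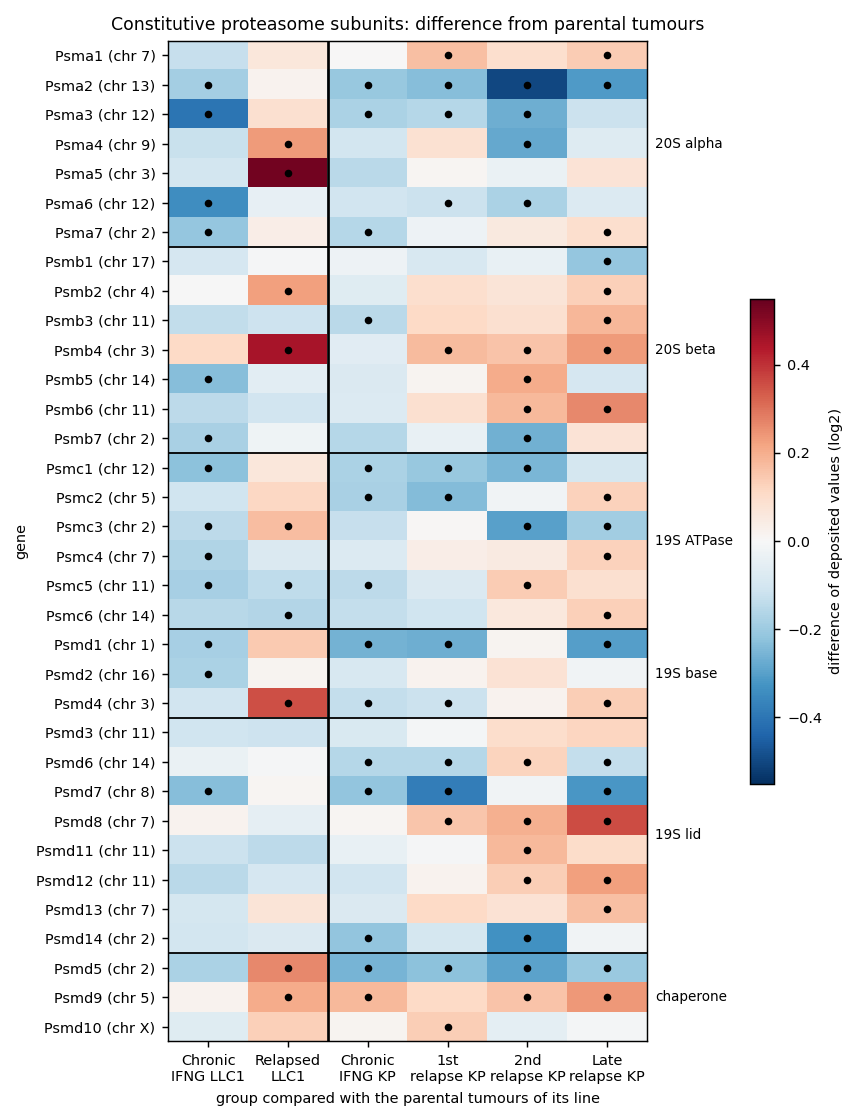
Log2 difference from the parental tumours of the same line (colour, deposited scale) for the 34 members (rows, ordered by role, with their chromosome) in 6 groups (columns, n = 3 each), with a black dot where limma called the difference. The chronic IFNG columns are mostly blue (13 members called lower in each), while the relapse columns mix both colours.

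Chronic IFNG tumours had lower constitutive subunit RNA than parental tumours in both lines. The summed normalised count of the 34 members was 73299 ± 38 in Parental LLC1 and 64644 ± 2248 in Chronic IFNG LLC1, and the 3 chronic libraries (62743 to 67125) all lay below the 3 parental ones (73274 to 73343). In KP the sums were 80532 ± 1357 and 72602 ± 1986, again without overlap (70479 to 74415 against 79041 to 81693). As a share of all counts the members held 0.313% ± 0.0032 and 0.284% ± 0.0116 in LLC1 and 0.349% ± 0.0106 and 0.318% ± 0.0035 in KP, so share and sum were lower together. Differences were below 0 for 31 of 34 members in LLC1 and for 30 of 34 in KP, with medians of -0.14 and -0.12 against -0.02 and -0.01 over all kept genes. In these bulk samples fewer cells of a type and less RNA per cell cannot be told apart.

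**Figure D2:**
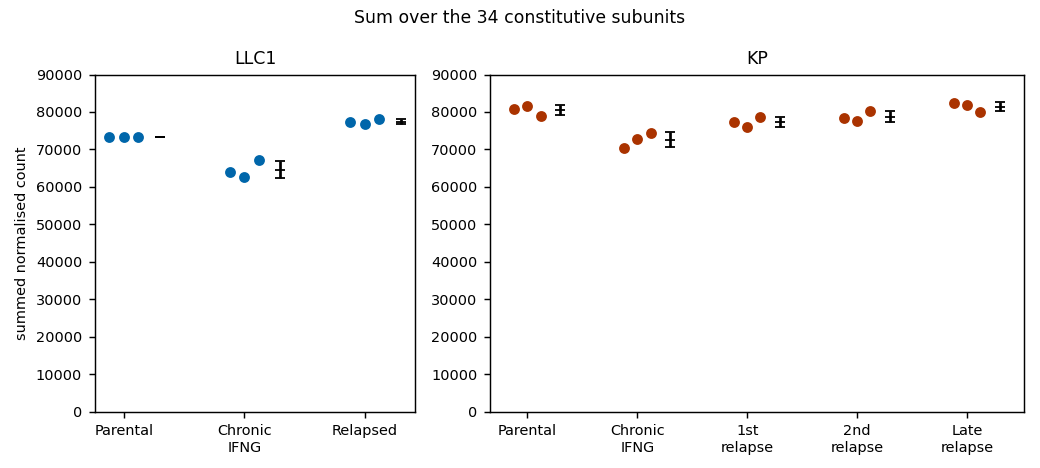
Summed normalised counts of the 34 members in each library (points) by group, with mean ± SD beside them, LLC1 on the left and KP on the right. The chronic IFNG libraries are the lowest of both lines, and the 3 relapse groups of KP lie between 76037 and 82317.

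In Chronic IFNG LLC1 13 of 34 members were called lower and 0 higher (limma adjusted p below 0.05, 24.5% of all kept genes called in either direction, 9.03% higher and 15.5% lower). By role 4 of 7 alpha subunits, 2 of 7 beta subunits, 4 of 6 ATPases, 2 of 3 base subunits, 1 of 8 lid subunits and 0 of 3 chaperones fell. At an unadjusted limma p under 0.05, 22 members were lower and 0 higher. Psma3 (chr12:70974621-70996347), an alpha-ring subunit, had counts of 4430.1, 3823 and 4422 in parental and 2980.5, 2994 and 3257 in chronic IFNG libraries. Its groups did not overlap and it was 1.37-fold lower (log2 difference -0.40, SE 0.06, limma adjusted p = 0.0019). Psma6 (chr12:55384222-55418454), a subunit of the same ring, had 2265, 2202 and 2245 against 1655, 1587 and 1769, also without overlap, and was lower (log2 difference -0.34, SE 0.05, limma adjusted p = 0.0014). The third member on that chromosome, the ATPase Psmc1 (chr12:100110154-100123405), had 2071, 2257 and 2166 against 1735, 1859.8 and 1760.1 and fell by 0.22 on the log2 scale (limma adjusted p = 0.0094). All 3 chromosome 12 members were thus lower in every chronic IFNG library, and among the 372 other kept genes of chromosome 12 the median difference was -0.15, with 41.4% called lower.

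The other members that fell most in Chronic IFNG LLC1 were on other chromosomes. Psmb5 (chr14:54614119-54618022), the catalytic subunit with chymotrypsin-like activity, had 1228, 1334 and 1244 in parental and 977, 1027 and 1029 in chronic libraries, without overlap (log2 difference -0.24, SE 0.05, limma adjusted p = 0.0057). The lid subunit Psmd7 (chr8:107580381-107588464) had 1816, 1676 and 1633 against 1332, 1362 and 1454, also without overlap (log2 difference -0.23, SE 0.05, limma adjusted p = 0.0093). Genes within 10 Mb of Psmb5 and Psmd7 had median differences of 0.01 and 0.04, so these 2 members were lower while their neighbours were centred near 0. The count of calls was 8 without Parental LLC1 replicate 2, 8 without Chronic IFNG LLC1 replicate 1 and 6 without Chronic IFNG LLC1 replicate 2, all of them lower. With no filter on low values there were 8 calls, and with only the groups compared in the fit 7. The summed fibroblast markers were higher in the chronic group (70008 to 94420 against 40358 to 50003) and the endothelial list (1 of 6 kept, Flt1) lower (198 to 271 against 396 to 534), and their part in the result was not tested.

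In Chronic IFNG KP 13 of 34 members were called lower and 1 higher (21.8% of all kept genes called, 9% lower and 12.8% higher). By role 3 of 7 alpha subunits, 1 of 7 beta subunits, 3 of 6 ATPases, 2 of 3 base subunits, 3 of 8 lid subunits and 1 of 3 chaperones fell. Psmd1, the large scaffold subunit of the cap base (chr1:86064387-86139151), had 4761, 4546 and 4538 in parental and 3434, 4087 and 3779 in chronic libraries and did not overlap (log2 difference -0.26, SE 0.05, limma adjusted p = 0.0024). Psmd14 (chr2:61711694-61800376), the deubiquitinating enzyme of the lid, had 2687, 2678 and 2486 against 2042, 2263 and 2242, also without overlap (log2 difference -0.22, SE 0.05, limma adjusted p = 0.0039). The assembly chaperone Psmd5 was lower (log2 difference -0.25, SE 0.07, limma adjusted p = 0.0219), as was the lid subunit Psmd7 (log2 difference -0.22, SE 0.07, limma adjusted p = 0.043). The member that rose was Psmd9, a chaperone of the ATPase ring (chr5:123169413-123250131), with 397, 478 and 429 in parental and 553, 547 and 534 in chronic libraries (log2 difference 0.18, SE 0.05, limma adjusted p = 0.0168).

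Calls in Chronic IFNG KP depended on single libraries and on the fit. The count was 8 with no filter and also 8 with only the groups compared, 6 without Parental KP replicate 1 and 4 without Chronic IFNG KP replicate 1. The adjusted p of Psmd5 became 0.0807 without Parental KP replicate 1 and 0.108 without Chronic IFNG KP replicate 3 (limma). That of Psmd7 became 0.113 without Parental KP replicate 1, 0.135 without Parental KP replicate 3 and 0.210 without Chronic IFNG KP replicate 1 (limma). It was also lost with no filter (0.0904), with only the groups compared (0.0936) and with the replicate block (0.0615, all limma). The adjusted p of Psmd9 became 0.0800 without Parental KP replicate 1, 0.0587 without Chronic IFNG KP replicate 1 and 0.0660 after quantile normalisation (limma). Summed fibroblast markers overlapped between the groups in KP (4838 to 12492 against 5445 to 9071). The carcinoma epithelium markers (5 of 5 kept) were higher without overlap (110966 to 136871 against 99058 to 101182), with Epcam, Krt19 and Cdh1 called higher. The endothelial list (1 of 6 kept, Flt1) was lower (2527 to 2842 against 3527 to 3758), and the part of these markers in the result was not tested. The members called lower in both chronic IFNG comparisons were 7: the alpha subunits Psma2, Psma3 and Psma7, the ATPases Psmc1 and Psmc5, the base subunit Psmd1 and the lid subunit Psmd7. Of the 9822 genes kept in both lines, 2.11% were called lower in both.

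In Relapsed LLC1 tumours 3 members rose by more than any other, while most members were not called. The sum over the members was 77443 ± 575 (76874 to 78023), above the parental range, and the median difference was 0.02, against 0.03 over all kept genes. In total 8 of 34 members were called higher and 2 lower (45.4% of all kept genes called, 25.9% higher and 19.5% lower). After median centring of the libraries the split was 8 higher and 4 lower, and after quantile normalisation 9 and 4. Higher members came from the alpha ring (2 of 7), the beta ring (2 of 7), the ATPases (1 of 6), the base (1 of 3) and the chaperones (2 of 3), and 0 of 8 lid subunits were called. Summed fibroblast markers were lower than in parental libraries (29170.4 to 31774 against 40358 to 50003), as was the endothelial list (253 to 319 against 396 to 534). Of the fibroblast markers Dcn, Lum, Col1a1, Col1a2 and Postn were called lower. Pdgfra and Dpt went the other way without being called (log2 differences 0.19 and 0.35). The carcinoma epithelium list (2 of 5 kept) was higher (7903 to 8537 against 5526 to 6939). Of its kept genes Krt18 was called (log2 difference 0.43, limma adjusted p = 0.002), and Krt8 was not (0.24, limma adjusted p = 0.12). The pericyte list (1 of 5 kept, 739 to 901 against 460 to 554) was also higher. So were the erythroid (2 of 8 kept, 531 to 1298 against 206 to 278) and leukocyte lists (2 of 10 kept, 290 to 737 against 235 to 267). The 2 kept leukocyte genes went opposite ways. Lyz2 was higher in relapsed than in parental libraries (means of 286 against 38.1 counts) and Cd68 lower (98.1 against 151). Each passed the filter only through the group where it was high, so these differences are given without a test. The same holds for Hbb-bs, 1 of the 2 kept erythroid genes (214 against 6.91). None of the list sums overlapped between the groups, and the part of these markers in the results was not tested.

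The 3 largest rises were the 3 members on chromosome 3. Psma5 (chr3:108256926-108279974), an alpha-ring subunit, had 1896, 1875 and 1952 in parental, 1663, 1700.1 and 1886 in chronic IFNG and 3028, 2896 and 2981 in relapsed libraries. Every relapsed library lay above all 6 others, 1.56-fold higher than parental (log2 difference 0.53, SE 0.05, limma adjusted p = 2.1e-05). Psmb4 (chr3:94884093-94886961), a beta-ring subunit without catalytic activity, had 2262, 2492 and 2369.9, 2528, 2576 and 2679.6 and 3501, 3528 and 3249.6 in the same order and was 1.44-fold higher (log2 difference 0.45, SE 0.05, limma adjusted p = 6.5e-05). Psmd4 (chr3:95032694-95042614), a ubiquitin receptor of the cap whose upstream stretch is printed above, had 2673, 2717 and 2698, 2470.3, 2379.6 and 2558 and 3527, 3653 and 3548 and was 1.33-fold higher (log2 difference 0.35, SE 0.04, limma adjusted p = 1.3e-04). For none of the 3 genes did the relapsed libraries overlap the other groups.

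Other genes of chromosome 3 moved the same way. Among its 523 other kept genes the median difference in Relapsed LLC1 was 0.29 and 69.2% were called higher, against 25.9% of all kept genes. Within 10 Mb of Psma5, Psmb4 and Psmd4 the medians were 0.28, 0.33 and 0.33. On chromosome 11, which holds 6 members (Psmb3, Psmb6, Psmc5, Psmd3, Psmd11 and Psmd12), all 6 differences lay between -0.15 and -0.09, and the 861 other kept genes had a median of -0.12. The median of the 6 members there was -0.12 as well, with 1 of them called lower.

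**Figure D3:**
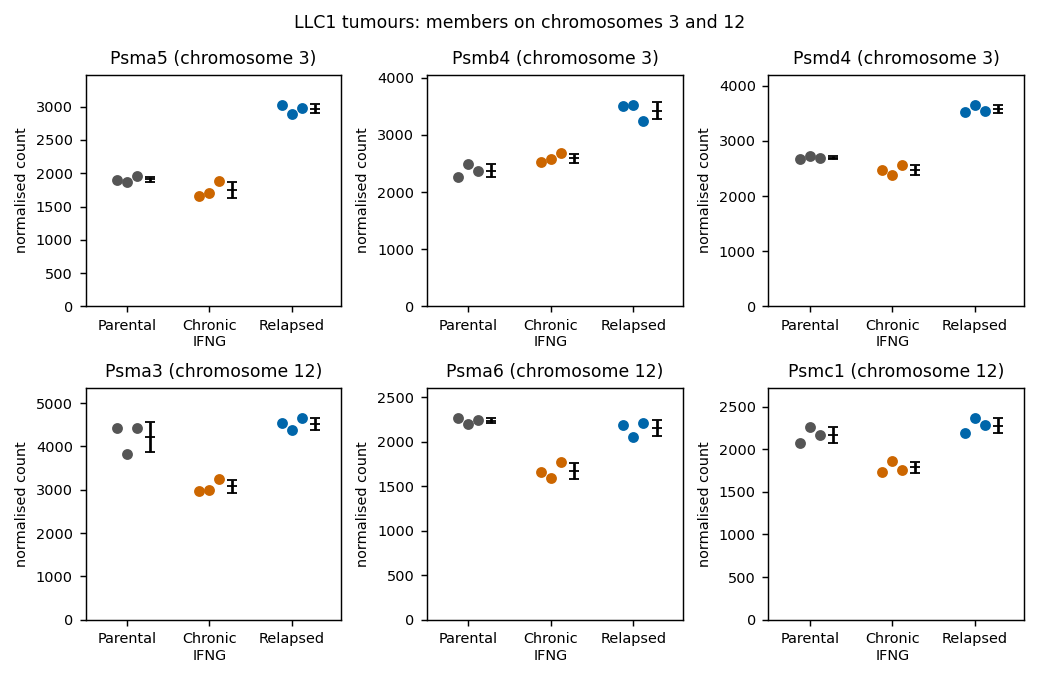
Normalised counts in each LLC1 library (points) with mean ± SD beside them, for the chromosome 3 members Psma5, Psmb4 and Psmd4 (top) and the chromosome 12 members Psma3, Psma6 and Psmc1 (bottom). The relapsed libraries stand above both other groups in the top row, and the chronic IFNG libraries stand below both in the bottom row.

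Outside chromosome 3 the changes in Relapsed LLC1 were smaller. The chaperone Psmd5 (chr2:34849734-34874968) had 1246, 1395 and 1533 in parental and 1877, 1724 and 1683 in relapsed libraries, without overlap (log2 difference 0.27, SE 0.07, limma adjusted p = 0.013). The members called lower were the ATPases Psmc6 (log2 difference -0.16, SE 0.05, limma adjusted p = 0.0341) and Psmc5 (log2 difference -0.14, SE 0.05, limma adjusted p = 0.0278). These 3 calls were not kept when single libraries were left out, and those of Psmc6 (0.0665) and Psmc5 (0.0516) were also lost with no filter (limma). The adjusted p of Psmd5 became 0.0514 without Parental LLC1 replicate 1 and 0.0551 without Relapsed LLC1 replicate 1 (limma). That of Psmc6 lay between 0.0548 and 0.113 without Parental LLC1 replicate 1 or 3 or any 1 of the 3 relapsed libraries (limma). That of Psmc5 lay between 0.0609 and 0.109 without Parental LLC1 replicate 1 or 2 or Relapsed LLC1 replicate 1 or 2 (limma).

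Set directly against Chronic IFNG LLC1, Relapsed LLC1 had 22 of 34 members called higher and 0 lower (52% of all kept genes called, 31.5% higher and 20.5% lower), with a median difference of 0.19 against 0.04 over all kept genes. All 7 alpha subunits, 4 of 7 beta subunits, 3 of 6 ATPases, all 3 base subunits, 2 of 8 lid subunits and all 3 chaperones were higher. At an unadjusted limma p under 0.05 the counts were also 22 and 0. Psma5 was 1.7-fold higher (log2 difference 0.63, SE 0.05, limma adjusted p = 4.8e-06) and Psma3 was higher by 0.49 (limma adjusted p = 9.3e-05). Psmc3, an ATPase, was lower than parental in chronic IFNG tumours (-0.14) and higher in relapsed ones (0.17), and it was the 1 member called in opposite directions within this line (5.41% of all kept genes). Summed fibroblast markers ran the other way, 70008 to 94420 in chronic and 29170.4 to 31774 in relapsed libraries. The carcinoma epithelium list was higher in relapsed than in chronic libraries (7903 to 8537 against 4555 to 6302), as was the pericyte list (739 to 901 against 425 to 720). The erythroid (531 to 1298 against 274 to 336) and leukocyte lists (290 to 737 against 252 to 267) were higher too. The endothelial list overlapped (253 to 319 against 198 to 271). The part of these markers in the result was not tested.

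In 1st relapse KP the members split in both directions around a median of -0.01. The sum was 77279 ± 1258, or 0.352% ± 0.0015 of all counts, and 4 of 34 members were called higher and 10 lower (50.9% of all kept genes called, 25.4% higher and 25.5% lower). After median centring the split was 3 higher and 14 lower, and after quantile normalisation 6 and 6. The count of calls was 10 without Parental KP replicate 1, which left 4 higher and 6 lower. Higher calls were 7 without Parental KP replicate 2, 2 without Parental KP replicate 3 and 2 without 1st relapse KP replicate 3. Psmd7, a lid subunit, had 2046, 1872 and 2116 in parental and 1465, 1345 and 1472 in 1st relapse libraries, without overlap, and was 1.41-fold lower (log2 difference -0.38, SE 0.07, limma adjusted p = 5.2e-04). Psmd1 (-0.27), the ATPase Psmc2 (-0.24) and the alpha subunit Psma2 (-0.23) were the next lowest (limma adjusted p = 7.3e-04, 5.8e-04 and 0.0026).

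The members that rose in 1st relapse KP did so by at most 0.17 on the log2 scale. Psmb4 had 2738, 2978 and 2757 against 3338, 3233 and 3188 and Psmd8 had 2469, 2502 and 2571 against 2758, 2793 and 3005, both without overlap (log2 differences 0.17 and 0.15, limma adjusted p = 0.0095 and 0.0047). Psma1 (0.17, limma adjusted p = 0.0122) and the chaperone Psmd10 on the X chromosome (0.13, limma adjusted p = 0.0313) were also called. In normalised counts Psmd10 had the largest fold rise of the members (1.18-fold, from a mean of 515.1 to 605.9). The call of Psma1 was lost without Parental KP replicate 3 (limma adjusted p 0.0545) and without 1st relapse KP replicate 3 (0.0565). The call of Psmd10 was lost without Parental KP replicate 2 (0.0646) or 3 (0.0899) and without 1st relapse KP replicate 2 (0.0595) or 3 (0.0885, all limma). It was also lost with no filter (0.0870), after median centring (log2 difference 0.10, adjusted p 0.0849) and after quantile normalisation (0.07 and 0.197, all limma). Fibroblast markers summed to 28464 to 43057 in this group against 5445 to 9071 in parental libraries, and the carcinoma epithelium list to 112888 to 137024 against 99058 to 101182. The endothelial (3812 to 4149 against 3527 to 3758) and pericyte lists (2 of 5 kept, 404 to 731 against 254 to 327) lay above the parental libraries as well, and the part of these markers in the differences was not tested.

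In 2nd relapse KP members were called in equal numbers each way, 9 higher and 9 lower of 34 (65.8% of all kept genes called, 36.8% higher and 29% lower). The summed count was 78782 ± 1371, near the parental 80532 ± 1357, but the share of all counts was 0.310% ± 0.0075 against 0.349% ± 0.0106. After median centring 4 members were higher and 9 lower, and after quantile normalisation 3 and 9, so the number of rises depended on scaling while 9 falls were counted under each of the 3. Psma2 (chr13:14613240-14674236) had 2820.2, 2880.3 and 2871 in parental and 1824, 1735 and 2047 in 2nd relapse libraries. Its groups did not overlap, and at 1.53-fold lower (log2 difference -0.50, SE 0.05, limma adjusted p = 1.3e-06) it had the largest difference of any member from parental KP tumours. Genes within 10 Mb of Psma2 had a median of 0.03, so the member stood apart from its neighbours here.

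The next 3 lowest members of 2nd relapse KP were on chromosome 2. Psmd14 had 1950.0, 2099.7 and 1864 against 2687, 2678 and 2486 in parental libraries and was 1.33-fold lower (log2 difference -0.33, SE 0.05, limma adjusted p = 1.8e-05). The ATPase Psmc3 (chr2:91054009-91066369) had 2796, 2537 and 2407 against 3209.8, 3439 and 3215 (log2 difference -0.30, SE 0.05, limma adjusted p = 7.1e-05). Psmd5 had 1438, 1335 and 1289 against 1858, 1749 and 1719 (log2 difference -0.30, SE 0.07, limma adjusted p = 0.0025). Groups did not overlap for any of the 3, and another member of the chromosome, the trypsin-like catalytic subunit Psmb7, was lower as well (-0.26, limma adjusted p = 5.8e-04). The fifth, Psma7, at the far end of the chromosome, was not called (0.05). Chromosome 2's 896 other kept genes had a median of -0.11, with 44.4% called lower.

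Members that rose in 2nd relapse KP lay mostly on chromosomes 11 (4 of 6 members) and 14 (2 of 3). The chromosome 11 members were higher, with a median of 0.14 beside 0.12 for the 895 other kept genes, of which 47.2% were higher. Psmb6 had 2284, 2413 and 2244 in parental and 2687, 2698 and 2684 in 2nd relapse libraries, without overlap (log2 difference 0.18, SE 0.04, limma adjusted p = 8.7e-04). Psmd11, a lid subunit, was higher by 0.18 (limma adjusted p = 0.0069), which was lost after quantile normalisation (0.0821). The chaperone Psmd9 was also called higher and had the largest fold rise of the members in normalised counts (1.22-fold, from a mean of 434.8 to 530.1). Psmb5 had 1811, 1639.8 and 1700.1 against 1483, 1362 and 1421 (log2 difference 0.21, SE 0.05, limma adjusted p = 0.0022), and Psmd8 had 2962, 2917 and 2996 against 2469, 2502 and 2571 (log2 difference 0.20, SE 0.04, limma adjusted p = 4.1e-04), both without overlap. Fibroblast markers were lowest in this group (696 to 1186) and the 5 carcinoma epithelium markers highest (197646 to 214768 against 99058 to 101182 in parental). The endothelial list was higher than in parental libraries (4761 to 5673 against 3527 to 3758) and the leukocyte list (1 of 10 kept) lower (161 to 202 against 248.9 to 589). The pericyte (350.2 to 471 against 254 to 327) and erythroid lists (1 of 8 kept, 648 to 792 against 513 to 630.0) were higher, and the part of these markers was not tested.

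In late relapse KP 14 of 34 members were called higher and 7 lower (56.9% of all kept genes called, 31% higher and 25.9% lower), and the summed count was 81367 ± 1223. After median centring the split turned to 8 higher and 11 lower, and without Parental KP replicate 3 there were 13 calls, 7 higher and 6 lower. Without Late relapse KP replicate 2 there were 9 higher calls, and with no filter 13 calls in all. Higher members were 2 of 7 alpha subunits, 4 of 7 beta subunits, 3 of 6 ATPases, 1 of 3 base subunits, 3 of 8 lid subunits and 1 of 3 chaperones. Psmd8 (chr7:29174188-29180701), a lid subunit, had 2469, 2502 and 2571 in parental and 3348, 3291 and 3466 in late relapse libraries. It was higher without overlap (log2 difference 0.36, SE 0.04, limma adjusted p = 3.2e-06). Psmb6 had 2779, 2904 and 2975 against 2284, 2413 and 2244 in parental libraries, also without overlap (log2 difference 0.27, SE 0.04, limma adjusted p = 5.0e-05). Psmd9 (log2 difference 0.24, SE 0.05, limma adjusted p = 8.5e-04) and Psmb4 (log2 difference 0.23, SE 0.05, limma adjusted p = 0.0011) followed on the log2 scale. In normalised counts Psmd9 had the largest fold rise of the members (1.35-fold, from a mean of 434.8 to 585.1).

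All 4 members of chromosome 7 (Psma1, Psmc4, Psmd8 and Psmd13) were higher in late relapse KP, where 38.6% of the chromosome's other kept genes were. Both members of chromosome 5, Psmc2 and Psmd9, were higher too, as were 50.1% of its other genes, and 2 of 3 on chromosome 3 and 3 of 6 on chromosome 11, as were 47.4% and 51.4%. The lowest members were Psmd7, with 1590.3, 1614 and 1340.5 against 2046, 1872 and 2116 (log2 difference -0.32, SE 0.07, limma adjusted p = 0.0016), and Psma2, with 2165, 2345 and 2100.2 against 2820.2, 2880.3 and 2871 (log2 difference -0.31, SE 0.05, limma adjusted p = 2.3e-04). Psmd1 (log2 difference -0.30, SE 0.05, limma adjusted p = 2.3e-04) and the beta subunit Psmb1 (chr17:15475021-15499751; log2 difference -0.21, SE 0.05, limma adjusted p = 0.0015) were lower as well. Genes within 10 Mb of Psma2 and Psmb1 had medians of -0.22 and -0.22, and 53.1% and 67.7% of them were called lower. Around Psmd7 the median was -0.03. The carcinoma epithelium markers summed to 125845 to 135530 in late relapse against 99058 to 101182 in parental libraries, with all 5 called higher, and the endothelial list to 5742 to 6161 against 3527 to 3758. The pericyte (328 to 692 against 254 to 327) and erythroid lists (631 to 781 against 513 to 630.0) lay just above the parental libraries. Fibroblast markers overlapped (6844 to 24918 against 5445 to 9071), and the part of these markers in the results was not tested.

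The 4 KP comparisons share their parental libraries, so a member's repeated calls in them are not independent. Psma2 and Psmd5 were called lower in all 4, as were 3.52% of all kept genes, and Psmb4 and Psmd8 were called higher in all 3 relapse comparisons, as were 12.9%. Psmd3, a lid subunit, was called in no comparison with parental tumours of either line, and its largest difference was 0.12 in late relapse KP (limma adjusted p = 0.071). Members called in both directions within KP were 6 (11.6% of all kept genes): Psma7, Psmb3, Psmc2, Psmc5, Psmd4 and Psmd6. Psmc2 was at -0.18 in chronic IFNG, -0.24 in 1st relapse and 0.13 in late relapse tumours, and Psmd4 at -0.13, -0.12 and 0.13. Psmd6, a lid subunit, was at -0.16, -0.16, 0.12 and -0.13 in the 4 groups in order, all called. Psmb3 and Psma7 were lower in chronic IFNG (-0.15 and -0.16) and higher in late relapse tumours (0.18 and 0.09), and Psmc5 was lower in chronic IFNG (-0.14) and higher in 2nd relapse (0.14).

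Between lines, 4 members were called higher in an LLC1 group and lower in a KP group, Psma4, Psmc3, Psmd4 and Psmd5 (15.5% of genes kept in both). Psma4, an alpha subunit, was at 0.23 in Relapsed LLC1 and -0.28 in 2nd relapse KP. The reverse held for 5 members, Psma7, Psmb5, Psmc4, Psmc5 and Psmc6 (16.6%). Psmc4, an ATPase, was at -0.17 in Chronic IFNG LLC1 and 0.13 in late relapse KP, and Psmc6 at -0.16 in Relapsed LLC1 and 0.13 in late relapse KP. The tables were normalised separately, and differences between lines were not tested.

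Relapse groups of KP also differed from each other. Against 1st relapse, 2nd relapse tumours had 9 of 34 members higher and 6 lower (62.2% of all kept genes called, 34.3% higher and 28% lower), or 4 higher and 14 lower after quantile normalisation. Late relapse tumours had 9 higher and 4 lower than 1st relapse (48.1% called, 24.6% higher and 23.5% lower; 8 and 6 after quantile normalisation, and 2 lower without 1st relapse KP replicate 3 or without Late relapse KP replicate 1) and 10 higher and 5 lower than 2nd relapse (54.9% called, 25.2% higher and 29.7% lower; 18 and 4 after quantile normalisation). The widest differences were the lid subunit Psmd7, higher in 2nd than in 1st relapse (0.36, limma adjusted p = 5.0e-04), Psma4, lower in 2nd than in 1st (-0.37, limma adjusted p = 5.4e-06), Psmc2, higher in late than in 1st relapse (0.36, limma adjusted p = 2.4e-05), and Psmb7, higher in late than in 2nd relapse (0.34, limma adjusted p = 9.7e-05). Psmd7 in 2nd relapse libraries (1889.7, 2068 and 1973) overlapped the parental range, whereas every 1st and late relapse library lay below it.

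Across the 34 members, the difference from parental tumours ran with the median difference of the other genes within 10 Mb, of which there were 40 to 225 per member. Pearson's r over the members was 0.59 in Chronic IFNG LLC1, 0.73 in Relapsed LLC1, 0.33 in Chronic IFNG KP, 0.58 in 1st relapse, 0.72 in 2nd relapse and 0.75 in late relapse KP, with Spearman's rho of 0.19, 0.66, 0.33, 0.62, 0.72 and 0.69. The same r over all kept genes was 0.19, 0.34, 0.15, 0.16, 0.27 and 0.30. Kept genes reach down to levels near 130 counts in LLC1 and 144 in KP, below the lowest parental means of the members (380.9 and 434.8). The values of r over all kept genes are thus not matched for level with those of the members. Between relapse groups of KP the members' r was 0.81 (2nd against 1st), 0.73 (late against 1st) and 0.71 (late against 2nd). These are descriptions over members of the same libraries, several of which share neighbours, so they carry no test. In Chronic IFNG LLC1 the relation rested on chromosome 12 (r = 0.09 without its 3 members), and in Relapsed LLC1 r was 0.45 without the 3 members of chromosome 3. In Chronic IFNG KP, where r was lowest, the neighbour medians spanned only -0.05 to 0.09, while 30 of 34 members lay below 0.

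**Figure D4:**
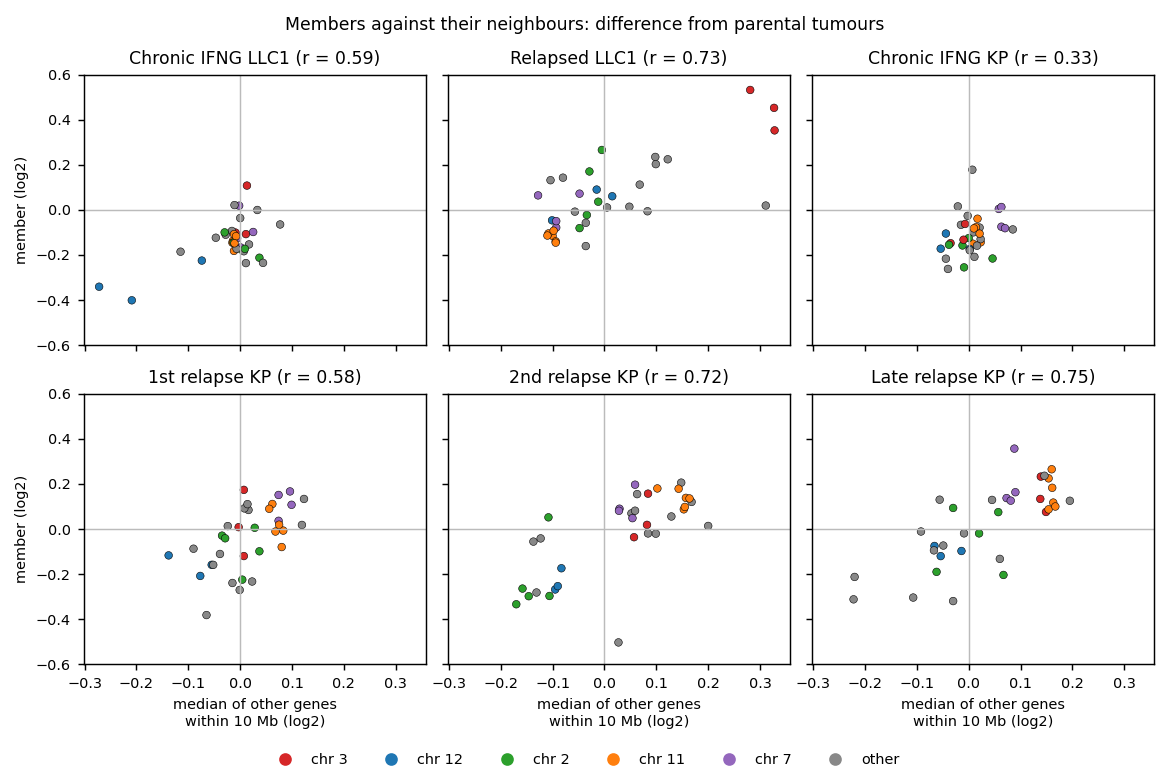
Each point is 1 of the 34 members in 1 group, its log2 difference from parental tumours (vertical) against the median difference of the other kept genes within 10 Mb (horizontal), coloured for the 5 chromosomes with the results described. The 3 chromosome 3 members stand at the upper right in Relapsed LLC1 and the chromosome 12 members Psma3 and Psma6 at the lower left in Chronic IFNG LLC1, while most members of both chronic IFNG groups lie below 0 where their neighbours are near 0.

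Correlations between members across libraries are given as descriptions, since all pairs share libraries and depth. The median pairwise correlation of deposited values was 0.54 over the 9 LLC1 libraries (561 pairs, 84.1% positive) and 0.19 over the 15 KP libraries (65.4% positive), against 0.02 and 0.01 over all pairs of kept genes. These libraries fall into groups, so the values describe group differences and spread together. Pairs on the same chromosome (41 pairs) had medians of 0.66 in LLC1 and 0.70 in KP, against 0.53 and 0.15 for pairs on other chromosomes. Pairs of the same role had 0.56 and 0.26, against 0.54 and 0.17 for other pairs. Psma1, Psma2, Psma3, Psma7 and Psmd1 followed the mean of the other members most closely in LLC1 (r = 0.96 for all 5), as did Psma5 and Psma7 in KP (0.90 and 0.87). At the other end stood Psmd8 in LLC1 (-0.27) and Psmb1 in KP (-0.37).

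The catalytic subunits were compared with their IFNG-inducible counterparts as log2 ratios of normalised counts in each library. With 3 libraries against 3 an exact permutation test cannot give a p below 0.1, and there were 18 tests, so no shift could pass a threshold of 0.05. In LLC1 Psmb8 stood at 16.0%, 19.95% and 21.8% of Psmb5 in parental libraries, 32.7%, 46.7% and 61.6% in chronic IFNG and 42.4%, 32.8% and 28.1% in relapsed ones. Both groups lay wholly above the parental libraries, by 1.25 and 0.83 on the log2 scale (exact two-sided permutation p = 0.1 each, 0.225 adjusted over 18 tests). Psmb8 itself was called higher in both (log2 difference 0.46, SE 0.12, limma adjusted p = 0.0196 in Chronic IFNG LLC1 and log2 difference 0.36, SE 0.12, limma adjusted p = 0.0312 in Relapsed LLC1), while Psmb5 was called lower in the chronic group and not in the relapsed one (-0.06). Psmb10 stood at 22.5% to 23.1% of Psmb7 in parental, 28.2% to 43.9% in chronic IFNG and 20.9% to 21.7% in relapsed LLC1 libraries, so the groups did not overlap but lay on either side (shifts 0.67 and -0.10, exact permutation p = 0.1 and adjusted 0.225 each).

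In KP the inducible subunits were scarcer. Psmb8 stood at 0.73%, 4.68% and 4.88% of Psmb5 in parental libraries, where Parental KP replicate 1 was far below the others with 10.9 counts of Psmb8. In 1st relapse libraries it stood at 12.3%, 10.1% and 16.7%, above every parental library (shift 2.32, exact permutation p = 0.1, adjusted 0.225, and 1.42 without Parental KP replicate 1). The chronic IFNG (1.19), 2nd relapse (1.07) and late relapse (0.46) shifts of this pair overlapped the parental libraries, and without Parental KP replicate 1 they were 0.29, 0.17 and -0.45. Psmb8 itself had 10.9, 63.7 and 69.4 counts in parental and 169, 148 and 248 in 1st relapse libraries, and since it passed the filter only through the 1st relapse group its difference is given without a test. Psmb10 stood at 15.5% to 16.8% of Psmb7 in parental and 17.1% to 17.9% in chronic IFNG KP libraries, a shift of 0.13 without overlap (exact permutation p = 0.1, adjusted 0.225), and at 18.3% to 22.5% in 1st relapse libraries (0.39, the same p). Psmb9 passed the filter in neither line and stood at 0.16% to 7.4% of Psmb6, so its ratios rest on few reads. Its shift was 1.10 in Chronic IFNG LLC1, without overlap (exact permutation p = 0.1, adjusted 0.225), and its KP shifts all overlapped the parental libraries.

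**Figure D5:**
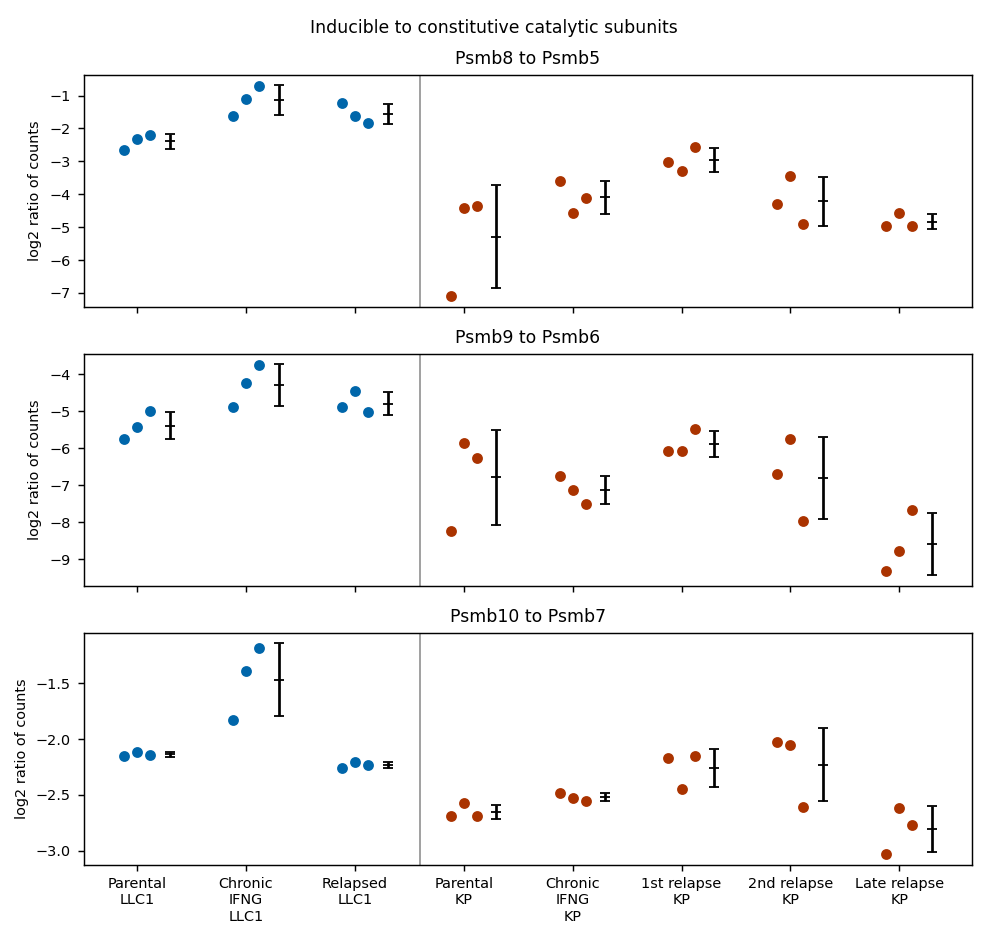
Log2 ratio of normalised counts of the inducible to the constitutive catalytic subunit in each library (points, LLC1 blue, KP red), with mean ± SD beside them, for Psmb8 to Psmb5, Psmb9 to Psmb6 and Psmb10 to Psmb7. In the top panel the Chronic IFNG LLC1 libraries lie above the parental ones and the 1st relapse libraries are the highest of KP.

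Other genes of the pathway were followed by list. Counts of called genes in these short lists stand beside the shares of all kept genes called higher and lower, which were 9.03% and 15.5% in Chronic IFNG LLC1, 25.9% and 19.5% in Relapsed LLC1, 12.8% and 9% in Chronic IFNG KP, 25.4% and 25.5% in 1st relapse, 36.8% and 29% in 2nd relapse and 31% and 25.9% in late relapse KP. The 20S assembly chaperones (5 of 5 kept in both lines), which build the core from its subunits, had 0 members called in either chronic IFNG comparison or in 1st relapse KP (limma; 2, 0 and 0 at an unadjusted p under 0.05). Pomp, the maturation factor of the core, was higher in Relapsed LLC1 (log2 difference 0.26, SE 0.07, limma adjusted p = 0.0081) and in late relapse KP (log2 difference 0.18, SE 0.07, limma adjusted p = 0.0277). Among activators and associated factors Usp14, a deubiquitinase of the cap, was lower in Chronic IFNG LLC1 (-0.31), Relapsed LLC1 (-0.44) and 1st relapse KP (-0.22; limma adjusted p = 0.0054, 2.0e-04 and 0.0052). Uchl5, the other deubiquitinase of the cap, was lower in Chronic IFNG LLC1 (1.64-fold; log2 difference -0.44, SE 0.10, limma adjusted p = 0.0085). Zfand5, an activator of the proteasome, was higher in 2nd relapse KP (1.5-fold; log2 difference 0.52, SE 0.05, limma adjusted p = 4.2e-07).

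Ubiquitin supply and delivery genes (13 of 13 kept) held the widest differences of the pathway. Uba1, the main ubiquitin-activating enzyme, had 12892, 13189 and 12211 in parental and 6092, 5628 and 5961 in 2nd relapse KP libraries, 2.17-fold lower without overlap (log2 difference -1.05, SE 0.05, limma adjusted p = 4.7e-10), and it was also lower in chronic IFNG (-0.27) and late relapse KP (-0.34). Rps27a, which encodes ubiquitin fused to a ribosomal protein, was lower in Relapsed LLC1 (1.54-fold; log2 difference -0.61, SE 0.06, limma adjusted p = 4.2e-05) and higher in 2nd relapse KP (0.47, limma adjusted p = 4.0e-07). Ribosomal protein genes have many processed copies, so the split of reads for Rps27a is uncertain. Rad23b and Ubqln1, shuttle factors that carry ubiquitinated proteins to the proteasome, were lower in 1st relapse KP (-0.39 and -0.31, limma adjusted p = 1.6e-04 and 6.5e-05).

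The regulators of proteasome genes (7 of 8 kept in LLC1, 8 of 8 in KP) had 0 higher and 1 lower in Chronic IFNG LLC1, 0 and 2 in Relapsed LLC1, 2 and 0 in Chronic IFNG KP, 0 and 1 in 1st relapse, 2 and 3 in 2nd relapse and 0 and 4 in late relapse KP. Nfe2l1, the transcription factor that raises proteasome genes when the protease is inhibited, was lower in Relapsed LLC1 (log2 difference -0.25, SE 0.08, limma adjusted p = 0.0215). Nfya, a subunit of the factor that binds CCAAT boxes, was lower in 1st, 2nd and late relapse KP (-0.38, -0.39 and -0.64, limma adjusted p = 7.8e-04, 3.5e-04 and 6.4e-06). Ngly1, the enzyme that activates NFE2L1 by removing its sugars, was higher in 2nd relapse KP (1.64-fold; log2 difference 0.46, SE 0.04, limma adjusted p = 3.6e-07). Of the immunoproteasome list (4 of 5 kept), 3 were higher in Chronic IFNG LLC1 and 1 in 2nd relapse KP, and in Relapsed LLC1 1 was higher and 1 lower. In Chronic IFNG KP and late relapse KP 0 were higher (limma, also 0 at an unadjusted p under 0.05). In 1st relapse KP 1 was higher apart from Psmb8, which passed the filter only through that group and is not counted there.

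Annotated near-copies of 10 members (18 copies, at least 95% identical over 300 bases or more) could share reads with them, and the counts of those members are uncertain to that extent. Of the 18 copies 10 were listed in the LLC1 table and 12 in the KP table, and the share of the others is unknown. The listed copies' own counts were under 1% of the member's except in 2 cases. A730017L22Rik, a copy of Psmd11, had 12.9% of its count in LLC1 and 14.25% in KP. Sirt3, whose transcripts share 329 bases with those of Psmd13, had 15.1% and 10.2%. None of the chromosome 3 or chromosome 12 members had a listed copy above 1% of its own count, but Psma3 and Psma5 also have copies not listed in LLC1.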

How the data were processed

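The deposited tables, 1 for the 9 LLC1 and 1 for the 15 KP libraries, hold variance-stabilised log2 values that the authors made from RNA-seq, and they were normalised separately. Of tools and builds, the notes on processing by the submitters list Salmon 1.8.0, cutadapt 2.9, GRCm38 and DESeq2 1.34.0, without roles. Normalised counts were calculated back by taking each table's lowest value (8.03 and 8.17) as a count of 0, after which 67.7% to 76.3% of low values lay within 0.15 of whole reads (30% by chance). Genes with a group mean at least 1 log2 unit above that value were kept (10581 and 11193). Differences were fitted with limma 3.58.1 (R 4.3.3) using a mean-dependent prior variance and a single model per line, and Benjamini-Hochberg adjustment over kept genes, after the procedure was tested on simulated data. Alternatives were no filter, a filter of 3 log2 units, median centring, quantile normalisation, log2 of counts plus 10, no trend, only the groups compared, the replicate block and each library left out. The replicate numbers carry no stated meaning. Deviations of same-numbered libraries correlated above 0.1 in all 3 pairs only between Parental KP and 1st relapse KP (0.149, 0.112 and 0.206). Between Parental and Chronic IFNG LLC1 all 3 were below 0 (-0.303, -0.173 and -0.085). Whether the numbers pair libraries is therefore not known, and the main fits assume no pairing. Other neighbour windows, and the correlation over all kept genes or without chromosomes 3 or 12, were added after seeing the data. The members, lists and naming rule were chosen with earlier results of these data known. Named with values are the catalytic pairs, up to 4 called members at each end per comparison with parental tumours, the 3 smallest and largest F test p in each line, members called in opposite directions, and up to 2 of the widest called genes of other lists, of which a selection is given. Differences between relapse groups and the ends of the correlations were chosen after their values were seen. Sequences and promoters are from RefSeq (GRCm38.p6), and coordinates from GENCODE vM21.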

Additional observations from a re-analysis of the deposited data

Results flagged for a closer look

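Nfe2l2, which encodes a regulator of antioxidant and proteasome genes and is not itself a subunit, stood on opposite sides of the parental tumours in the chronic IFNG groups of the 2 lines. In LLC1 it had 5609, 5212 and 4529 normalised counts in parental and 4241, 4136 and 3911 in chronic IFNG libraries, all 3 below (log2 difference -0.29, SE 0.07, limma adjusted p = 0.018). In KP it had 2664, 2597 and 2768 and 3220.4, 2807 and 3098, all 3 above (log2 difference 0.15, SE 0.05, limma adjusted p = 0.0382). The difference between the lines was not tested, since their tables were normalised separately.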

How the results depend on the processing

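Counts of members called stayed within 1.5 times the reported ones under all alternatives other than left-out libraries, except with no filter (8 in Chronic IFNG LLC1, 8 in Chronic IFNG KP and 13 in late relapse KP) and with only the groups compared (7 in Chronic IFNG LLC1 and 8 in Chronic IFNG KP). Leaving out 1 library gave 6 to 14 calls in Chronic IFNG LLC1, 7 to 9 in Relapsed LLC1, 20 to 22 in Relapsed against Chronic IFNG LLC1, 4 to 13 in Chronic IFNG KP, 10 to 16 in 1st relapse, 15 to 19 in 2nd relapse and 13 to 19 in late relapse KP. Between relapse groups it gave 15 to 16 (2nd against 1st), 10 to 13 (late against 1st) and 13 to 15 (late against 2nd), and for the F test 20 to 24 in LLC1 and 32 to 34 in KP. Of 39 named member calls with parental tumours, 31 were kept without any 1 library, and 0 changed direction under any alternative run. Pair shifts changed sign without 1 library for Psmb8 to Psmb5 in late relapse KP (-0.45 to 0.92) and for Psmb9 to Psmb6 in Chronic IFNG KP (-1.08 to 0.12) and 2nd relapse KP (-0.74 to 0.57). Same-numbered libraries of different groups had correlations of deviations between -0.30 and 0.27, and the numbers were not taken as pairs in the main fits. For 1st relapse against Parental KP the block gave 4 higher and 10 lower calls, as without it. With the replicate block the counts were 10, 10, 22, 11, 14, 17 and 19 for the first 7 comparisons in the order above, and of the named calls Psmd7 in Chronic IFNG KP was lost (limma adjusted p 0.0615). The members' r with their neighbours was 0.33 to 0.84 with windows of 5 Mb and 0.40 to 0.83 with 20 Mb. Depth is an estimate, and Psmb8 and Psmb9 in KP rest on few reads.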

Other observations

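Nfe2l2 fell in the later KP relapses, with 2170.2, 2291 and 2221 normalised counts in 2nd relapse and 1771, 1925 and 1784 in late relapse libraries against 2664, 2597 and 2768 in parental ones (-0.22 and -0.45, limma adjusted p = 0.0014 and 4.2e-06), and in Relapsed LLC1 (-0.40, limma adjusted p = 0.0013). Nfe2l3, a related factor, had 155, 181 and 172 in parental and 32.7, 52.9 and 63.1 in late relapse KP libraries, without overlap (log2 difference -0.49, SE 0.06, limma adjusted p = 4.8e-06), and was higher in Chronic IFNG KP (0.22, limma adjusted p = 0.01). Adrm1, a ubiquitin receptor of the cap that is outside the 34, was lower in Chronic IFNG KP (log2 difference -0.12, SE 0.04, limma adjusted p = 0.0465). Sem1, a small lid subunit also outside them, was lower in Chronic IFNG LLC1 (log2 difference -0.16, SE 0.05, limma adjusted p = 0.0251). It was called lower in Relapsed LLC1 as well (-0.16). In 1st relapse KP 1 of these 2 genes was called lower (-0.11).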
